A study of Sus scrofa with 36 samples.

Results

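The glycolysis enzymes examined here are 10 named genes of, or directly beside, the pathway that turns glucose into pyruvate and lactate. They are the 3 phosphofructokinases PFKP, PFKL and PFKM, the hexokinases HK1 and HK2 and the phosphoglycerate kinase PGK1. The others are the phosphoglucomutase PGM1, the enolase ENO1 and the lactate dehydrogenases LDHA and LDHB. The rule names the 10 as glycolysis enzymes and uses no measured value, although they were picked with earlier results of these data known. A row was found for 8 of the 10 among the 12253 genes of the table, under the Ensembl identifiers ENSSSCG00000010253 (HK1), ENSSSCG00000008261 (HK2), ENSSSCG00000011158 (PFKP), ENSSSCG00000028197 (PFKL), ENSSSCG00000021129 (PFKM), ENSSSCG00000012440 (PGK1), ENSSSCG00000022343 (ENO1) and ENSSSCG00000013366 (LDHA). PGM1 and LDHB were not analysed here.

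RNA was sequenced from the subcutaneous fat of 36 pigs of an F2 intercross of Duroc and Göttingen minipigs, 1 library per pig. The pigs were selected on an obesity index, a genetic value estimated from many fatness traits, and fall into 12 with a low index (lean, 7 males and 5 females), 12 from the middle of its distribution (intermediate, 6 males and 6 females) and 12 with a high index (obese, 6 males and 6 females). The sources name no drug, diet contrast or engineered allele for any group. All pigs were slaughtered at a similar body weight, so the lean pigs were the oldest and the obese pigs the youngest, and group and age cannot be told apart. Up to 3 full sibs could share a group, so the pigs of a group are not all unrelated. The libraries held 8735839 to 11755925 reads in the listed genes, with a median of 10496910. The members were covered by 154 (PFKM) to 10656 (ENO1) reads in a library, so counting error was small beside the differences between pigs.

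Glycolysis starts when a hexokinase phosphorylates glucose, which keeps it in the cell. Phosphofructokinase then makes fructose bisphosphate in the main regulated step, and PGK1 and enolase lead to pyruvate, which lactate dehydrogenase reduces to lactate. Fat cells also use glycolysis to make the glycerol phosphate on which triglyceride is built. The isoforms differ by tissue: HK1 is the widespread form, HK2 is the insulin-regulated hexokinase of muscle and fat, PFKM is the muscle form, PFKL the liver form and PFKP the platelet form of phosphofructokinase. The tissue is a mixture, and in a bulk sample more cells of a type and more RNA per cell cannot be told apart.

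Each value below is a normalized count, the number of reads of the gene divided by the size factor of the pig, and each difference is a log2 difference on the deposited scale with its standard error (SE). Levels of different genes were not compared, since gene lengths were not used. Counts of pigs above or below another group were made for the members only, and the share of all genes was not counted. The tests are moderated tests of limma over all 12253 genes with sex as a term, and adjusted p is the Benjamini-Hochberg value over those genes.

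HK1 had the largest difference between obese and lean pigs of the 8 members, 0.57 (SE 0.151, 95% confidence interval 0.26 to 0.88), which is a fold of 1.48. In lean pigs its normalized count ran from 1322 over a median of 1982 to 4656, with a mean of 2319 ± 1082 (SD, n = 12). In intermediate pigs it ran from 2530 over a median of 2855 to 4190, with a mean of 2994 ± 519 (SD, n = 12). In obese pigs it ran from 1981 over a median of 3233 to 4839, with a mean of 3299 ± 898 (SD, n = 12). The groups overlapped, but 11 of 12 obese and 12 of 12 intermediate pigs lay above the lean median. The difference did not pass the threshold over all genes (limma, unadjusted p = 0.000597, adjusted p = 0.0745). It ranked 97th by p of the 12253 genes. The intermediate pigs differed from the lean by 0.46 (SE 0.151, limma, adjusted p = 0.261) and the obese from the intermediate by 0.11 (SE 0.151, limma, adjusted p = 0.990).

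**Figure D1:**
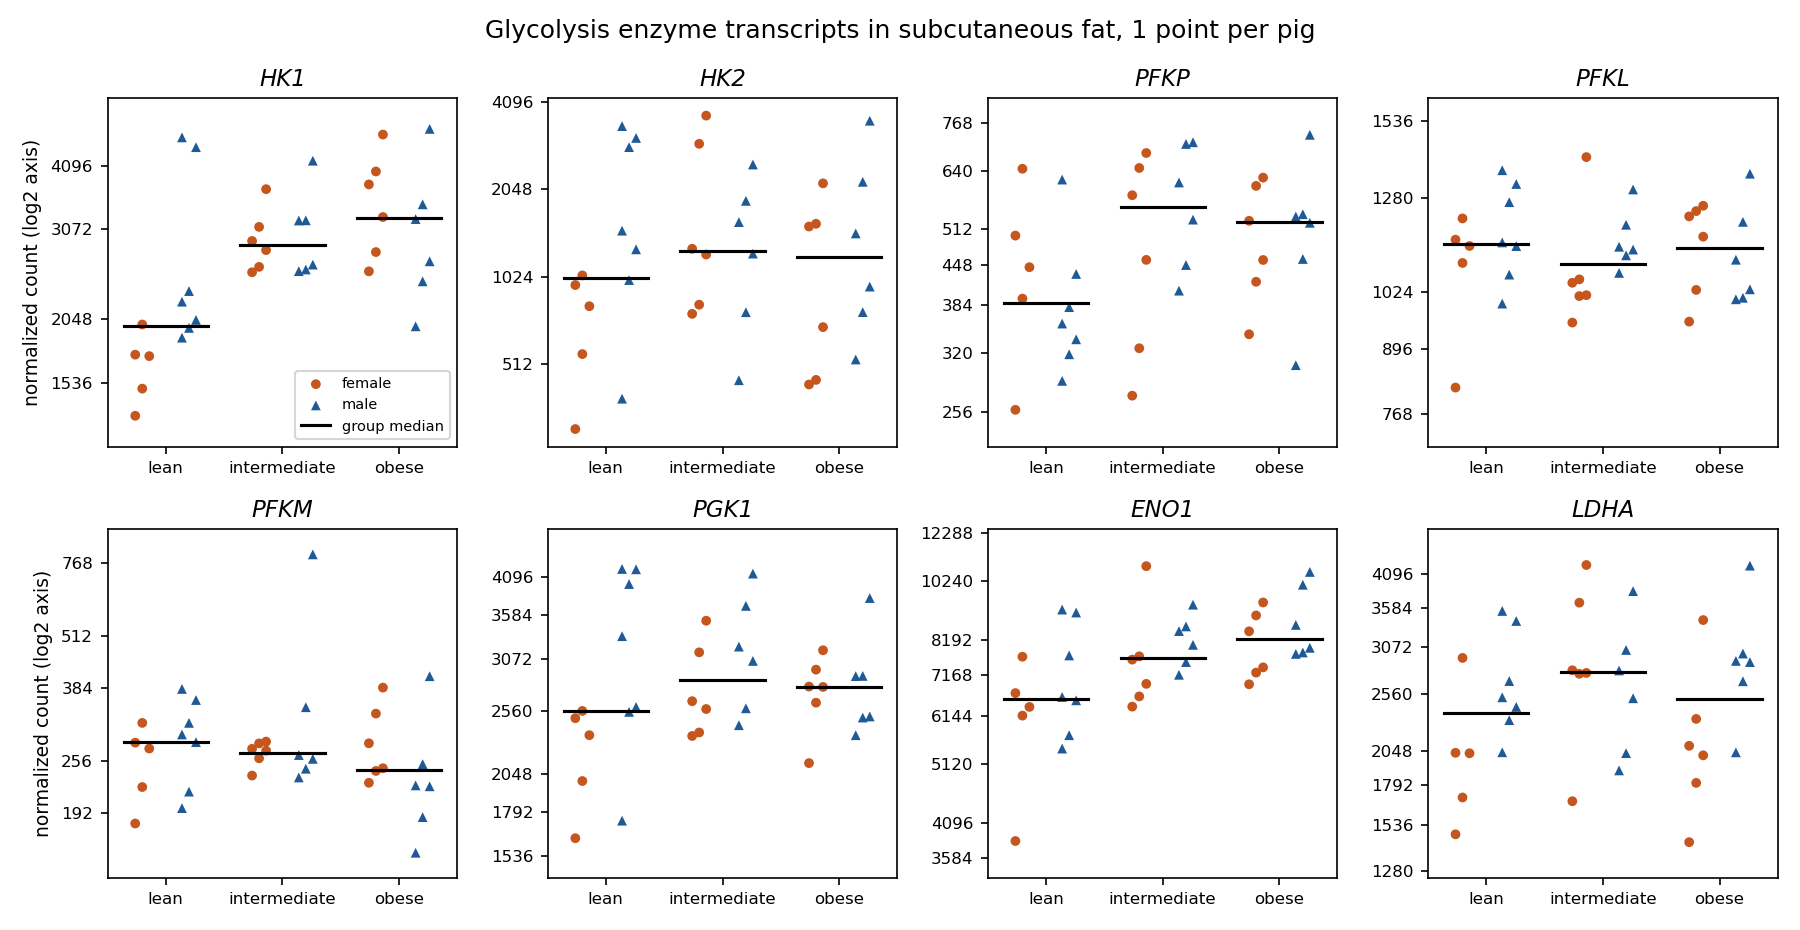
Normalized counts (log2 axis, scaled separately for each gene) of the 8 enzymes in the lean, intermediate and obese pigs, with 1 point per pig, circles for females, triangles for males and a line at the median of each group of 12. For HK1 the 5 lean females lie below all other females, and 2 lean males lie at 4455 and 4656.

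The lean pigs were not alike in HK1. The 5 lean females were at 1322, 1494, 1731, 1743 and 1997. The 6 intermediate females were at 2530, 2592, 2797, 2914, 3106 and 3684, and the 6 obese females at 2540, 2772, 3248, 3764, 3991 and 4717. Thus every lean female lay below every intermediate and every obese female. This split was named after the values were seen, and the share of all genes that separate in this way was not counted. The 7 lean males were at 1882, 1967, 2039, 2215, 2324, 4455 and 4656, and the 6 obese males at 1981, 2428, 2658, 3218, 3440 and 4839. The 6 intermediate males ran from 2542 to 4190. All 6 lay above the lean male median, and 5 of the 7 lean males lay below all of them. Among males the groups overlapped, and lean replicates 4 and 10 lay above 5 of the 6 obese males.

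In a fit of the females alone HK1 was higher in obese than in lean pigs by 1.00 (SE 0.138, 95% confidence interval 0.71 to 1.29), a fold of 2.00, and passed the threshold (limma, adjusted p = 0.00681). It had the lowest p of all genes there, and 21 of the 12253 genes (0.171%) passed in that fit. In a fit of the males alone the difference was 0.21 (SE 0.223, limma, adjusted p = 0.742). The female difference did not pass when the spread was estimated over both sexes (1.00, SE 0.206, limma, adjusted p = 0.0624), where 4 genes did (0.0326%), and the male difference of the same fit was 0.21 (SE 0.189), where 1 gene passed (0.00816%). The male difference minus the female difference, tested directly, was -0.79 (SE 0.279, limma, unadjusted p = 0.00791, adjusted p = 0.248), so a difference between the sexes was not shown over all genes, of which 1 (0.00816%) passed.

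Single pigs decided the call of HK1 over both sexes. Adjusted p was 0.0328 without lean replicate 10 (difference 0.66), 0.0438 without lean replicate 4 (0.65) and 0.0472 without lean replicate 2 (0.55), all 3 of them males. In the same fits 43 (0.351%), 14 (0.114%) and 292 (2.38%) of all genes passed, and without lean replicate 2 the HK1 difference was not larger than in all pigs. Over the 36 fits with 1 pig left out it lay between 0.0328 and 0.153, and the difference between 0.52 and 0.66.

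HK2 varied widely between pigs within each group. Its normalized count ran from 306 over a median of 1017 to 3386 in lean pigs, from 451 over 1255 to 3680 in intermediate pigs and from 436 over 1196 to 3533 in obese pigs. The highest pig of the 36 was 12.0-fold above the lowest, and its residual SD within group and sex, 0.96 on the log2 scale, lay at the 97.4th percentile of all genes. The obese pigs differed from the lean by 0.02 (SE 0.373, 95% confidence interval -0.73 to 0.78, limma, adjusted p = 0.984), an interval that holds both a loss and a gain of more than the HK1 difference. The 5 lean females ran from 306 to 1036 and overlapped the obese females, of which 3 of 6 lay above the lean female median. Of the intermediate females 4 of 6 lay above every lean female, and intermediate minus lean was 1.10 (SE 0.474, 95% confidence interval 0.11 to 2.10, limma, unadjusted p = 0.0320, adjusted p = 0.600) in females alone and -0.36 (SE 0.499) in males alone, against 0.31 (SE 0.373) over both sexes. The 7 lean males ran from 389 to 3386. HK2 fell with the size factor of the library over the 36 pigs (r = -0.49, adjusted permutation p = 0.0311 over 72 relations; rho = -0.49, adjusted p = 0.0684), and the part of the size factor in its values was not tested. Of the other members HK1 had r = -0.40 with the size factor (rho = -0.31, adjusted permutation p = 0.159 and 0.254), at -0.34 in males, -0.43 in females and -0.30 without 2 pigs. PFKP had r = 0.34 (rho = 0.43, adjusted permutation p = 0.262 and 0.126), at 0.63 in males, 0.12 in females and 0.58 without 2 pigs. PGK1 had r = -0.27 (rho = -0.29, adjusted permutation p = 0.400 and 0.306), at -0.53 in males, 0.01 in females and -0.35 without 2 pigs. The part of the size factor in these values was not tested either.

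Among the phosphofructokinases PFKP was higher in the fatter groups by values within the spread between pigs. Its normalized count ran from 258 over a median of 388 to 644 in lean pigs, from 272 over 557 to 712 in intermediate pigs and from 306 over 527 to 733 in obese pigs. The means were 415 ± 122, 532 ± 150 and 506 ± 119 (SD, n = 12 each). The groups overlapped over most of their range, with 10 of 12 intermediate and 10 of 12 obese pigs above the lean median. The obese pigs differed from the lean by 0.29 (SE 0.171, limma, adjusted p = 0.437) and the intermediate from the lean by 0.34 (SE 0.171, limma, adjusted p = 0.408). The 6 intermediate males all lay above the median of the lean males, and 5 of the 7 lean males lay below all of them. In females 4 of 6 intermediate pigs lay above the lean median and 1 of the 5 lean pigs lay below all of them. In fits of each sex alone the intermediate minus lean difference was 0.55 (SE 0.213) in males and 0.086 (SE 0.260) in females, and the obese minus lean difference 0.42 (SE 0.213) in males and 0.12 (SE 0.260) in females, with limma adjusted p of 0.412 to 0.952. The difference between the sexes in the obese against lean effect was 0.30 (SE 0.345, limma, adjusted p = 0.735).

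PFKL was the steadiest member. It ran from 818 over a median of 1148 to 1367 in lean pigs, from 954 over 1095 to 1410 in intermediate pigs and from 956 over 1137 to 1356 in obese pigs, a 1.72-fold range over all 36. Its residual SD of 0.17 on the log2 scale lay at the 5.89th percentile of all genes. The obese pigs differed from the lean by -0.02 (SE 0.0715, 95% confidence interval -0.17 to 0.12, limma, adjusted p = 0.928), which bounds any difference well below that of HK1. PFKM ran from 181 over a median of 284 to 382 in lean pigs, from 233 over 268 to 806 in intermediate pigs and from 154 over 244 to 410 in obese pigs. The value of 806 belonged to intermediate replicate 6, a male, and the next highest pig was at 410. The obese pigs differed from the lean in PFKM by -0.10 (SE 0.161, limma, adjusted p = 0.830).

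The balance of the isoforms was compared as log2 ratios within each pig, with 4 ratios in 3 comparisons each, by permutation within sex. None of the 12 passed (adjusted permutation p of 0.537 to 0.745). The ratio of PFKP to PFKL averaged -1.51 ± 0.52 (SD, n = 12) for the lean group, -1.13 ± 0.51 for the intermediate group and -1.19 ± 0.40 for the obese group. The ratio of HK2 to HK1 averaged -0.97 ± 0.80 for the lean group, -1.14 ± 0.81 for the intermediate group and -1.54 ± 0.85 for the obese group, and the difference of obese from lean within sex was -0.53 (unadjusted permutation p = 0.111). The ratio of PFKP to PFKM differed between obese and lean pigs by 0.36 and that of PFKM to PFKL by -0.07. Each of these is a ratio of read numbers, so its level also holds the lengths of the transcripts, and only its differences between pigs can be read.

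ENO1 was the member with the next largest difference past an unadjusted p of 0.05. Its normalized count ran from 3827 over a median of 6561 to 9193 in lean pigs, from 6366 over 7653 to 10835 in intermediate pigs and from 6928 over 8210 to 10600 in obese pigs. The means were 6750 ± 1514, 7940 ± 1254 and 8447 ± 1156 (SD, n = 12 each). All 12 obese pigs and 11 of 12 intermediate pigs lay above the lean median, while 8 of the 12 lean pigs lay below the lowest obese pig. The obese pigs differed from the lean by 0.35 (SE 0.103, 95% confidence interval 0.14 to 0.55), a fold of 1.27, which did not pass over all genes (limma, unadjusted p = 0.00185, adjusted p = 0.106). The estimates for males (0.34, SE 0.143) and females (0.36, SE 0.156) were close, and their difference was -0.03 (SE 0.212, 95% confidence interval -0.46 to 0.40). The lowest value of the 36 was that of lean replicate 12, a female, which was also the lowest of all pigs in PFKL and PGK1. With 1 pig left out at a time the difference lay between 0.27 and 0.38 and adjusted p between 0.0538 and 0.190.

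PGK1, the enzyme that makes the first ATP of the pathway, and LDHA, which makes lactate, showed no difference between the groups that passed over all genes. PGK1 ran from 1634 over a median of 2553 to 4214 in lean pigs, from 2342 over 2848 to 4146 in intermediate pigs and from 2129 over 2785 to 3804 in obese pigs. Its obese minus lean difference was 0.05 (SE 0.119, 95% confidence interval -0.19 to 0.29, limma, adjusted p = 0.898). LDHA ran from 1479 over a median of 2372 to 3542 in lean pigs, from 1683 over 2793 to 4239 in intermediate pigs and from 1434 over 2506 to 4228 in obese pigs. Its obese minus lean difference was 0.07 (SE 0.157, 95% confidence interval -0.24 to 0.39, limma, adjusted p = 0.880). In females 5 of 6 obese and 4 of 6 intermediate pigs lay above every lean pig in PGK1, and in the fit of females alone PGK1 differed from lean by 0.26 (SE 0.141, limma, adjusted p = 0.376) in obese and 0.29 (SE 0.141, adjusted p = 0.633) in intermediate pigs. LDHA in that fit was 0.50 (SE 0.233, limma, unadjusted p = 0.0476, adjusted p = 0.623) for intermediate minus lean and -0.47 (SE 0.222, unadjusted p = 0.0483, adjusted p = 0.546) for obese minus intermediate. In males alone the differences of both genes lay between -0.15 and 0.17. PGK1, ENO1 and LDHA have processed copies in mammalian genomes, and how reads shared with such copies were counted is not given in the sources used here, so the values of these 3 are uncertain to that extent.

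**Figure D2:**
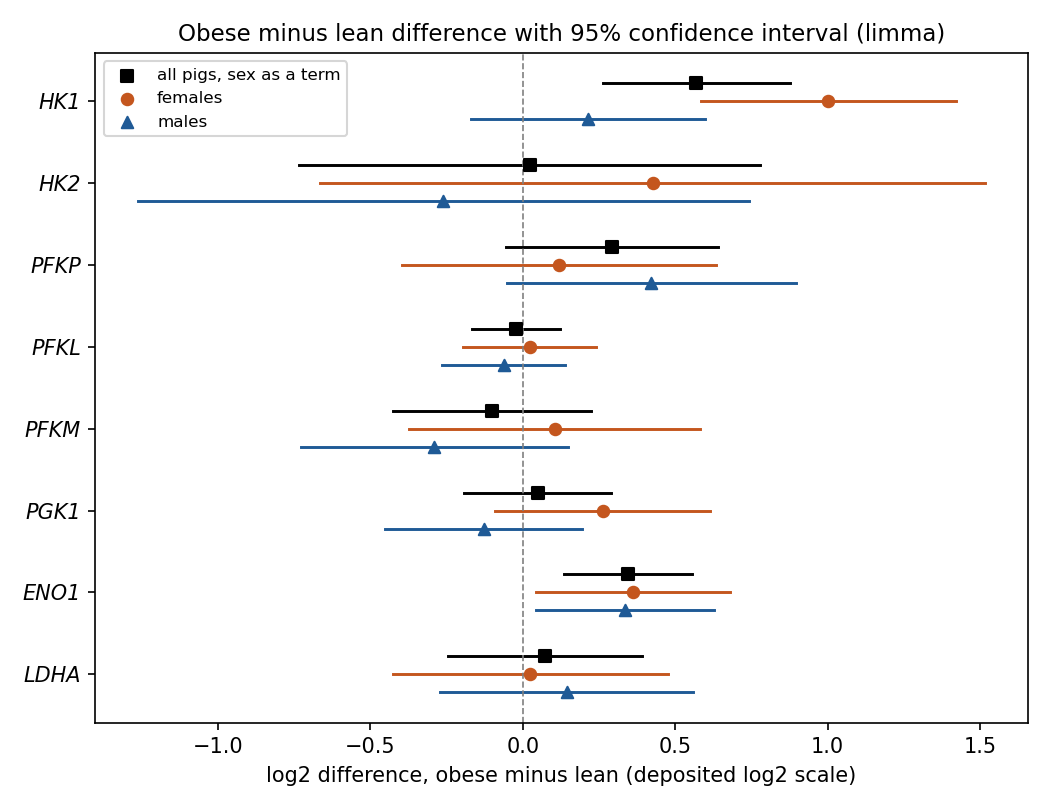
Log2 difference of obese minus lean pigs (deposited log2 scale, x axis) with its 95% confidence interval for the 8 enzymes, from the fit of all pigs with sex as a term (squares) and for females (circles) and males (triangles) from a fit with each group and sex as its own mean. The intervals of HK1 (0.26 to 0.88) and ENO1 (0.14 to 0.55) over all pigs lie above 0, as do those of HK1 in females (0.58 to 1.42) and ENO1 in males (0.044 to 0.63) and in females (0.045 to 0.68), and the others include 0.

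Over the 8 members, 0 passed the adjusted threshold in obese against lean, where 5 of the 12253 genes (0.0408%) did. HK1 and ENO1 had an unadjusted p under 0.05, both higher in obese pigs, against 835 of all genes (6.81%) in that direction. The median difference of the members was 0.06 and that of all genes -0.01. In intermediate against lean 0 members and 0 of all genes passed (0%), and HK1 and ENO1 again were those with an unadjusted p under 0.05, against 1535 of all genes (12.5%) in either direction. This comparison shares the 12 lean pigs with the first. In obese against intermediate 0 members and 0 of all genes passed (0%), no member had an unadjusted p under 0.05 where 524 of all genes (4.28%) did, and the differences ran from -0.29 (HK2) to 0.11 (HK1). In the test of any difference among the 3 groups 0 members and 2 of all genes (0.0163%) passed, with adjusted p of 0.169 for HK1 and 0.221 for ENO1 (limma).

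All 8 members were higher in males by their estimates, from 0.03 (PFKP) to 0.44 (HK2), but 0 passed over all genes, where 268 (2.19%) did. PGK1, an X-linked gene, was the 1 member with an unadjusted p under 0.05, against 2245 of all genes (18.3%), with a male minus female difference of 0.23 (SE 0.0971, limma, unadjusted p = 0.0222, adjusted p = 0.193). The 19 males ran from 1738 over a median of 2892 to 4214 and the 17 females from 1634 over 2575 to 3512, so the sexes overlapped over most of the range. LDHA differed by 0.24 (SE 0.128) and ENO1 by 0.15 (SE 0.0841). The median male minus female difference was 0.15 over the members and -0.01 over all genes.

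Markers of several cell types also differed by sex. All 6 adipocyte markers with a row were lower in males by their estimates (median -0.35), and LIPE (-0.55, limma, adjusted p = 0.00534) and PNPLA2 (-0.37, adjusted p = 0.0483) passed. Their summed normalized count ran from 30285 over a median of 62741 to 74040 in males and from 39794 over 83923 to 106235 in females. Of the 7 fibroblast or progenitor markers with a row 6 were higher in males by their estimates (median of the 7 at 0.62). COL1A2 (0.97, limma, adjusted p = 0.00676) and DCN (0.62, adjusted p = 0.0222) passed. The other 1 was lower in males, at -0.97, with an unadjusted p under 0.05 (limma), and did not pass. The sums ran from 252063 to 791784 in males and from 147666 to 586389 in females. The lymphocyte markers CD2 and CD8A (median -1.08) and all 9 macrophage markers (median -0.35) were lower in males by their estimates, and none passed. The part of these cells in the sex differences of the members was not tested.

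The other genes of the pathway were taken from a list of 20, of which 11 had a row. In obese against lean 0 of the 11 passed, 8 estimates were above 0 and the median was 0.18. HK3, the hexokinase of white blood cells, differed by 0.58 (limma, adjusted p = 0.212), with a median normalized count of 253 in lean and 484 in obese pigs and obese pigs from 137 to 1061. ALDOC, an aldolase, differed by 0.47 (adjusted p = 0.306), GPI, which makes fructose phosphate, by 0.18 (adjusted p = 0.309) and PGAM1, the mutase between PGK1 and enolase, by 0.26 (adjusted p = 0.265), by limma. These 4 of 11 had an unadjusted p under 0.05 and were higher in obese pigs, against 6.81% of all genes. ENO3, the muscle enolase, differed by -0.33 (limma, adjusted p = 0.433).

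None of the genes of the 8 neighbouring lists passed in obese against lean either (limma). At an unadjusted p under 0.05 there were 3 glycogen genes, 1 pentose phosphate gene and 1 glucose sensing factor higher, 1 pyruvate entry gene higher and 1 lower, 1 hypoxia gene higher and 2 lower, and 0 in the lists of transport, gluconeogenesis and fructose bisphosphate regulators. Over all genes 835 were higher (6.81%) and 965 lower (7.88%) at that p. Lists of 2 to 11 genes are too short to set 1 gene against such a share. In glycogen metabolism 9 of 9 genes had a row and their median was 0.14, and the lowest p belonged to UGP2, which makes UDP-glucose (0.39, limma, adjusted p = 0.134), and GYS2, a glycogen synthase (1.13, adjusted p = 0.156). GYS2 ran from 52.6 to 1315 in lean and from 266 to 1669 in obese pigs. In the pentose phosphate pathway 6 of 7 had a row with a median of 0.23, and TALDO1, a transaldolase, differed by 0.29 (limma, adjusted p = 0.367). In the entry of pyruvate into the mitochondrion 11 of 13 had a row with a median of 0.18. There PDK4, the kinase that shuts off pyruvate dehydrogenase, differed by -1.14 (limma, adjusted p = 0.201) and MPC2, a subunit of the pyruvate carrier, by 0.36 (adjusted p = 0.306). PDK4 had a median normalized count of 14179 in lean and 7918 in obese pigs, with lean pigs from 5181 to 35676 and obese pigs from 1088 to 11948.

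Of the hypoxia response 11 of 13 genes had a row with a median of -0.13, and EPAS1, a hypoxia-inducible factor, differed by -0.38 (limma, adjusted p = 0.150) and P4HA1, a collagen prolyl hydroxylase, by 0.40 (adjusted p = 0.259). Of the glucose sensing factors 3 of 5 had a row with a median of 0.37, MLXIPL (ChREBP) at 0.38 (limma, adjusted p = 0.335) and MLXIP at 0.37. Of gluconeogenesis 5 of 7 had a row with a median of -0.11, with pyruvate carboxylase PC at -0.15 and PCK1 at -0.56, the latter between 39.9 and 4729 in obese pigs. Of the regulators of fructose bisphosphate 4 of 5 had a row with a median of -0.08, TIGAR at 0.15 and PFKFB4 at -0.11. Of glucose and lactate transport only SLC16A3 (-0.06) and SLC16A7 (-0.01), both lactate carriers, had a row of a list of 8, so the glucose carriers were not analysed here.

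**Figure D3:**
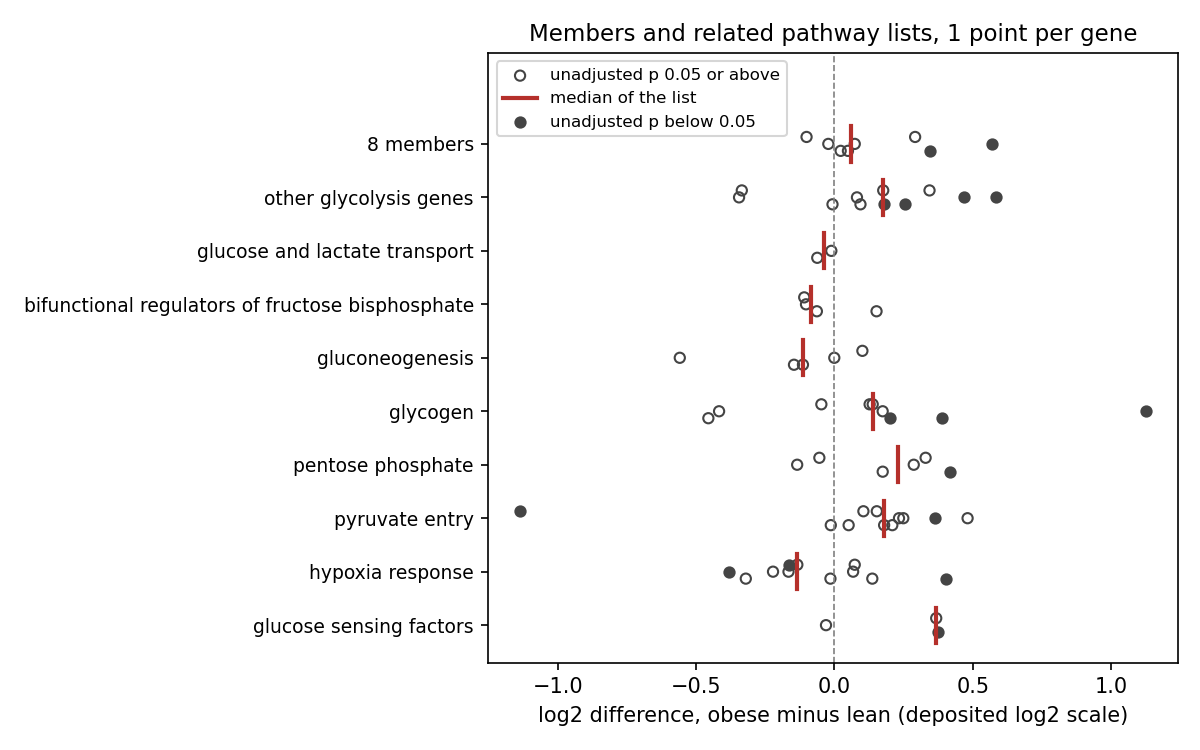
Log2 difference of obese minus lean pigs (deposited log2 scale) for the 8 enzymes and for the genes of 9 related lists, 1 point per gene, filled where the unadjusted p is below 0.05, with a red line at the median of each list. HK1 (0.57) and ENO1 (0.35) are the filled points of the enzymes, PDK4 (-1.14) and GYS2 (1.13) are the points farthest out, and no gene shown passed over all genes.

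The members did not vary as 1 block over the 36 pigs. Of their 28 pairs 10 passed by Pearson's r (adjusted permutation p), 9 of them positive, and 6 passed by both r and Spearman's rho. ENO1 stood in 4 of the 10, with HK1 (r = 0.62, rho = 0.60, adjusted permutation p = 0.00112 and 0.00336), PGK1 (r = 0.62, rho = 0.54, 0.00126 and 0.00943), PFKL (r = 0.59, rho = 0.47, 0.00168 and 0.0210) and LDHA (r = 0.55, rho = 0.53, 0.00315 and 0.00943). HK1 with HK2 gave r = 0.49 and rho = 0.50 (adjusted permutation p = 0.0114 and 0.0164). HK1 with PGK1 (r = 0.51), HK2 with PGK1 (0.42), HK2 with LDHA (0.42) and PFKL with LDHA (0.44) passed by r alone. PFKM with HK2 passed by rho alone (r = 0.24, rho = 0.45, adjusted permutation p = 0.277 and 0.0267), and without the 2 pigs farthest from the median its r was 0.46 (adjusted permutation p = 0.0274). All values of a pig come from 1 library, so they share its depth and its mix of cells.

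PFKP was related to few of the others. Its r with the other 7 members lay between -0.40 and 0.23. The pair of PFKP and PGK1 was the 1 negative pair that passed (r = -0.40, rho = -0.45, adjusted permutation p = 0.0483 and 0.0267). The 2 genes ran in opposite directions with the size factor (r = 0.34 for PFKP, -0.27 for PGK1), and its part in this pair was not tested. Once group and sex were taken out this pair was at r = -0.53 (rho = -0.57, adjusted permutation p = 0.00443 and 0.00467). Within males it was -0.55 and within females -0.25, neither past the threshold. Without the 2 pigs farthest from the PFKP median it was at r = -0.33 and rho = -0.39 (adjusted permutation p = 0.129 and 0.0975), again not past the threshold. PFKL with ENO1 fell to 0.36 without the 2 pigs farthest from the PFKL median (adjusted permutation p = 0.101). HK1 with ENO1 was 0.45 once group and sex were taken out, 0.60 without 2 pigs, 0.73 within males (adjusted permutation p = 0.0109) and 0.52 within females (adjusted permutation p = 0.153).

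**Figure D4:**
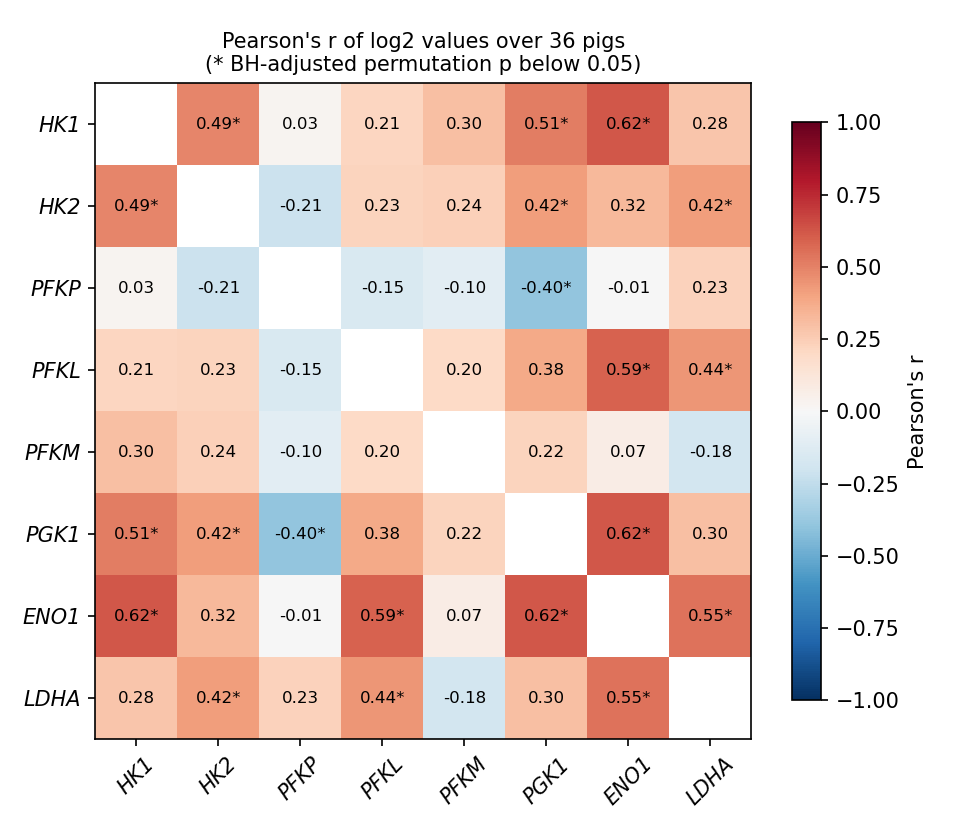
Pearson's r of the deposited log2 values over the 36 pigs for the 28 pairs of the 8 enzymes, from blue (-1) to red (1), with an asterisk where the adjusted permutation p is below 0.05. ENO1 carries 4 of the 10 marked pairs, PFKM none by r, and PFKP with PGK1 (-0.40) is the marked negative pair.

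**Figure D5:**
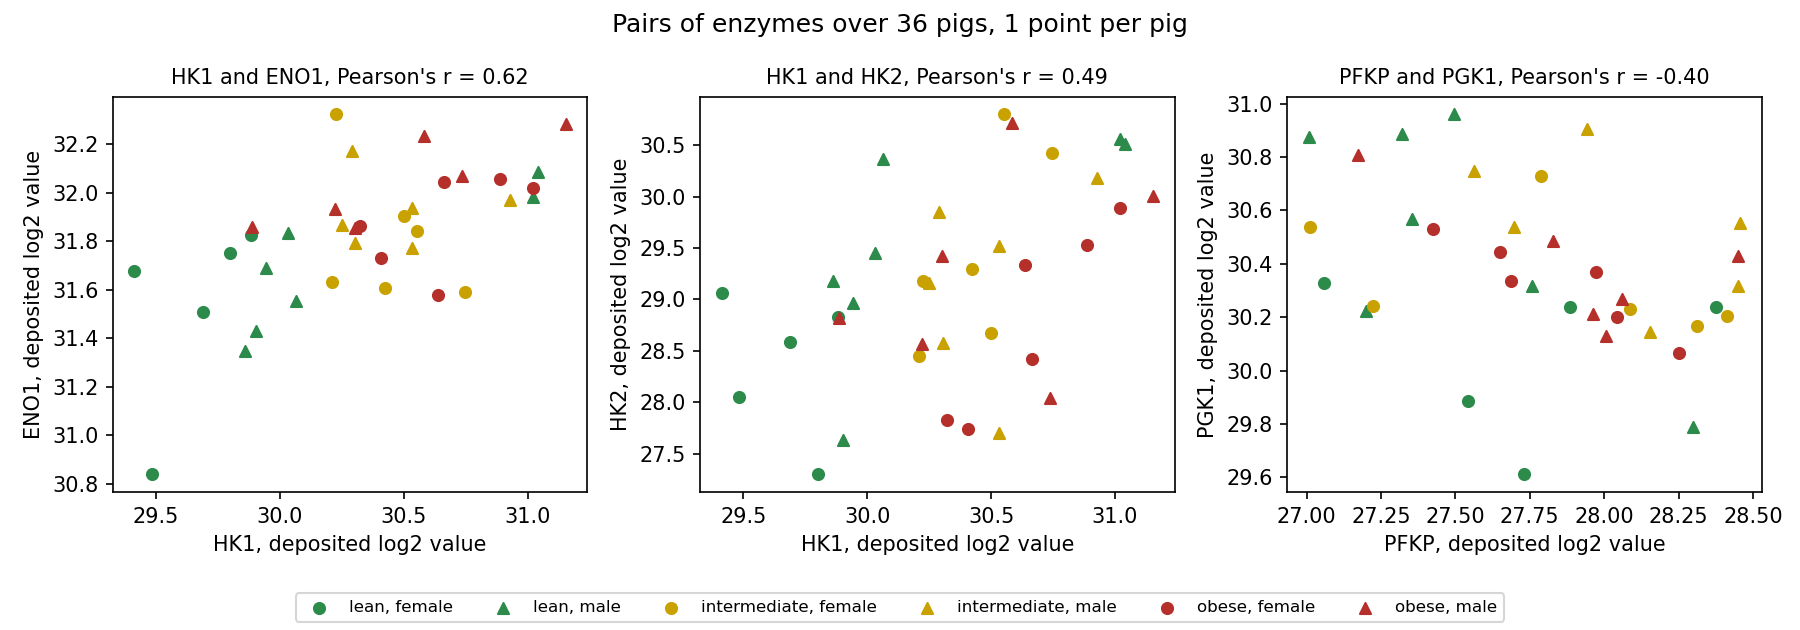
Deposited log2 values of HK1 against ENO1, HK1 against HK2 and PFKP against PGK1, 1 point per pig, coloured by group, with circles for females and triangles for males. HK1 rises with ENO1 (r = 0.62) and HK2 (r = 0.49), the lean females lie at the low end of HK1, and PGK1 falls with PFKP (r = -0.40).

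The genes whose values followed PFKP most closely among 8319 with a symbol were ADGRD1 (r = 0.85), EMILIN2 (0.84), ITGA11 (0.83), PCOLCE2 (0.82) and PCSK6 (0.82), over 36 pigs and with no test. With group and sex taken out these 5 kept r of 0.80 to 0.85, and 3 of the 5 remained among the first 5. No other member was near them: LDHA ranked 2337th and PGK1 7954th. The closest gene to HK2 was ACSL1 (0.84), to PFKL ELOB (0.72), to PFKM RAB3A (0.81), to PGK1 ETFA (0.88), to ENO1 PGAM1 (0.84) and to LDHA S100A6 (0.79). ENO1 had HK1 and PGK1 at ranks 35 and 36.

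Markers of other cells differed between the groups by their estimates, with none past the adjusted threshold in obese against lean. Of 13 macrophage markers 9 had a row, and all 9 were higher in obese than lean pigs by their estimates (median 0.80), 8 with an unadjusted p under 0.05, against 6.81% of all genes in that direction. Their summed normalized count ran from 2269 over a median of 3335 to 11546 in lean pigs, from 3213 over 7740 to 11519 in intermediate pigs and from 4926 over 8707 to 12580 in obese pigs. PFKP rose with the macrophage score over pigs (r = 0.56, adjusted permutation p = 0.0155 over 72 relations; rho = 0.52, adjusted p = 0.0518), at 0.71 in males, 0.39 in females and 0.48 without 2 pigs. LDHA had r = 0.35 with that score (0.37 in males, 0.63 in females), HK1 0.20 (0.06 in males, 0.50 in females) and ENO1 0.30, none past the threshold. The part of these cells in the values of PFKP, LDHA, HK1 and ENO1 was not tested.

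Of the endothelial markers 4 of 8 had a row, all lower in obese pigs by their estimates (median -0.31, sums of 9118 to 16246 in lean and 7292 to 12468 in obese pigs), and PFKP fell with their score (r = -0.50, adjusted permutation p = 0.0311; rho = -0.44, adjusted p = 0.126). HK1 had r = -0.39 with that score (rho = -0.36, adjusted permutation p = 0.167 and 0.254), at -0.67 in females, 0.01 in males and -0.22 without 2 pigs. The part of endothelial cells in the values of PFKP and HK1 was not tested. Of the adipocyte markers 6 of 12 had a row, PLIN1, PLIN4, CIDEC, LIPE, PNPLA2 and PPARG. Their sums were 30285 to 88148 in lean and 52701 to 106235 in obese pigs, so the tissue carried the defining markers of fat in every pig. Their median obese minus lean difference was 0.10, with 5 estimates above 0 and 1 below. CIDEC (0.54, limma, unadjusted p = 0.00199, adjusted p = 0.106) and PLIN4 (0.74, unadjusted p = 0.0223, adjusted p = 0.241) had an unadjusted p under 0.05, against 6.81% of all genes in that direction. LDHA fell with the adipocyte score (r = -0.60, adjusted permutation p = 0.00864; rho = -0.53, adjusted p = 0.0518), as did PFKL (r = -0.51, adjusted permutation p = 0.0311; rho = -0.43, adjusted p = 0.126). None of these relations passed by both r and rho.

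The lists for other cells had few rows. Of 16 skeletal muscle markers TNNC2 and DES had a row (median -0.33), with a sum of 43.7 to 1417 in lean and 70.0 to 973 in obese pigs. PFKM, the muscle isoform, had r = -0.01 with their score. HK1 had r = -0.36 (rho = -0.33, adjusted permutation p = 0.237 and 0.254), at -0.18 in males, -0.52 in females and -0.45 without 2 pigs. The part of muscle in the values of HK1 was not tested. Of the fibroblast or progenitor markers 7 of 11 had a row with a median difference of 0.03 between obese and lean pigs. PFKP had r = 0.34 with their score (rho = 0.31, adjusted permutation p = 0.262 and 0.254), at 0.72 in females and -0.01 in males. LDHA had r = 0.41 (rho = 0.28, adjusted permutation p = 0.159 and 0.306), at 0.48 in females, -0.01 in males and 0.26 without 2 pigs. The part of these cells in the values of PFKP and LDHA was not tested. Of the lymphocyte markers 2 of 10 had a row (median 0.71), of the red cell markers 2 of 5 (0.81) and of the skin markers KRT10 of 5 (-0.26). No gene of these lists passed in obese against lean over all genes.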

How the data were processed

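The deposited table holds 1 log2 value per gene and pig, made by the authors from poly-A paired-end libraries aligned with STAR to Sscrofa10.2, counted per gene with HTSeq and scaled with DESeq size factors and the voom function of limma (tool versions not given in the sources used here). Genes with low counts had been removed by the authors, and the lowest recovered value was 6 reads. Each deposited log2 value equals log2 of (reads + 0.5) over (size factor + 1), times a constant. The size factor is thus only partly divided out, and the values, although described as corrected for gender, still differed by sex. Whole reads were recovered from the steps of the low values (at least 99.85% of values within 0.1 of a whole number in every pig), and normalized counts are those reads divided by the size factor (0.796 to 1.18).

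limma 3.58.1 in R 4.3.3 was fitted to the deposited log2 values of all 36 pigs with an intensity trend, a mean per group and a sex term, and p-values were adjusted (Benjamini-Hochberg) over 12253 genes, with a threshold of 0.05. Ratios and correlations were tested two-sided by permutation with 100000 resamples (smallest p 1e-05). Marker scores are means of standardised log2 values. On simulated obese against lean data of 12253 genes the fit recovered 169 of 200 genes changed by a log2 value of 1, with 12 false calls.

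Groups and sex came from the sample labels, and no columns were left out. Replicate numbers name pigs only. Symbols were matched for 8320 genes from a table of gene IDs. The members and lists were chosen with earlier results of these data known. The text names every member with a row, the 2 genes of lowest p in each list (6 among the other glycolysis genes), the 5 genes most like PFKP and the 1 most like each other member, except for results that are not reported here. PCK1 ranges, the single pigs and the marker genes were named after their values were seen. The alternatives are given in the closing section.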

Additional observations from a re-analysis of the deposited data

How the results depend on the processing

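No member passed in obese against lean without a sex term, without the intensity trend, without the 25% of genes with the lowest mean, with each pig centred on its median, with voom weights on recovered reads, with an offset of 5 reads, with the 2 groups alone or in males alone, while in females alone 1 did (HK1). With 1 pig left out the count ran from 0 to 1, and the number of all genes that passed ran from 1 to 292 (without lean replicate 2) against 5 in all pigs. It ran from 1 to 17 over the other alternatives in both sexes together. The counts of members in the other group and sex comparisons and of isoform ratios were 0 under every alternative run. Of the 28 correlations 10 passed, and 8 did with group and sex taken out, 15 with each pig centred, 6 without the 2 pigs farthest from the median, 1 in males alone and 2 in females alone, where fewer pigs were used.

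Estimates that turned direction had not passed in the fit of all pigs and did not pass after turning, and the cause was not tested. In obese against lean these were HK2 without a sex term (-0.014), in males alone HK2 (-0.26) and PGK1 (-0.13), and in females alone PFKM (0.10) and PFKL (0.022). In intermediate against lean they were HK2 (-0.36) and LDHA (-0.026) in males alone. In obese against intermediate they were HK2 (0.10), LDHA (0.17) and PFKL (-0.036) in males alone and PFKP (0.033) and PFKM (0.048) in females alone. Among the ratios they were HK2 to HK1 for obese against intermediate in males alone (0.091) and for intermediate against lean in females alone (0.31), PFKP to PFKM for obese against intermediate in females alone (-0.015) and PFKM to PFKL for obese against lean in females alone (0.082). Of the correlations 4 turned: PFKP with HK1 (0.028) to -0.20 with group and sex taken out and -0.21 in males alone, PFKP with ENO1 (-0.0075) to 0.13 in males alone and 0.14 without 2 pigs, PFKP with PFKL (-0.15) to 0.0083 without 2 pigs and PFKM with LDHA (-0.18) to 0.0011 in females alone.

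With 1 pig left out, differences ran across 0 for HK2 (-0.13 to 0.14), PGK1 (-0.0097 to 0.096) and PFKL (-0.067 to 0.0019) in obese against lean, PFKM (-0.043 to 0.14) in intermediate against lean, PFKP (-0.13 to 0.018) and PFKL (-0.0096 to 0.048) in obese against intermediate and PFKP (-0.026 to 0.091) and PFKM (-0.051 to 0.090) in males against females. The difference between the sexes in the obese against lean effect ran across 0 for LDHA (-0.0092 to 0.24), ENO1 (-0.10 to 0.14) and PFKL (-0.15 to 0.023).

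No paired analysis was run, since the groups hold different pigs, and the replicate numbers used here only name pigs. The ratio of LDHA to LDHB was not run, since LDHB was not analysed here. P-values measure the spread between pigs, some of them sibs, and with 12 pigs a group a change of the size seen for PFKP lies within that spread.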
